A study of Homo sapiens with 66 samples.

Results

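The etoposide response of NOMO-1, a human acute myeloid leukaemia (AML) cell line, was measured in 6 RNA-seq libraries, 3 from untreated and 3 from etoposide-treated cells. These are 6 of the 66 libraries of a series that profiled 11 AML cell lines with and without etoposide. They were chosen by their label alone, as every library labelled NOMO-1, and no measured value entered the choice. Both groups were NOMO-1 cells kept in culture for 24 hours, either in medium alone or with 1.65 µM etoposide, the IC50 of this line, which is the dose that lowers its viability to the midpoint. Each library was made from cells of 3 pooled wells, and the design text calls the 3 libraries of a group biological replicates. NOMO-1 is an established line grown from a leukaemia that the study lists as monocytic, type M5, so the libraries describe 1 line at 1 dose and 1 time, and p-values measure the spread between these cultures. The question was which genes changed their transcript level under a topoisomerase II poison in these cells.

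Etoposide traps topoisomerase II on the DNA ends that the enzyme has cut, and the trapped complexes become DNA double-strand breaks when a replication fork or a transcribing polymerase meets them. The breaks activate the checkpoint kinases ATM and ATR, which stabilise p53, halt the cell cycle in S and G2 phase, and signal to NF-kB, the transcription factor that drives inflammatory cytokines and survival genes. The integrated stress response is a separate programme, in which phosphorylation of a translation initiation factor raises ATF4, the transcription factor of amino acid supply and of several pro-apoptotic genes. Myeloid leukaemia cells are also known to express genes of mature monocytes under DNA-damaging drugs, while genes of immature granule proteins are a feature of their undifferentiated state.

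The libraries held between 18907941 and 20632889 reads on genes, and 15024 genes had enough reads to be tested. In a principal component analysis the first component carried 83.3% of the variance and separated treated from untreated libraries, and the second, with 7.98%, set replicate 1 of each group apart from replicates 2 and 3, at 19.6 against -8.84 and -8.29 for etoposide and at -11.3 against 4.45 and 4.35 for untreated libraries. Of 10 markers listed as monocytic 8 were above 1 CPM in untreated cells, led by MPO, LYZ and ITGAM. MPO and CD33 are also members of the azurophil granule and progenitor list below. CD14, a defining monocyte receptor, lay at 0.293 CPM ± 0.16 (SD, n = 3). CPM values are read counts relative to the library total, on the usual CPM scale, after TMM scaling, edgeR's trimmed-mean factor. The summed level of the 10 markers was 2786 to 3109 CPM in untreated and 1155 to 1540 CPM in etoposide libraries. MPO made up most of the untreated sum, at a mean of 2070 CPM against 420 CPM with etoposide, so the sum follows this granule gene. Of the others CD86 (log2 fold change 2.06), CD14 (1.28), ITGAM (0.59), CSF1R (0.53) and CD4 (0.45) had positive values. CD68 (-0.69), LYZ (-0.58), FCGR1A (-0.41) and CD33 (-0.12) had negative ones. None of 8 erythroid or 4 epithelial markers exceeded 1 CPM in either group. Of 4 T-cell markers 3 exceeded 1 CPM in both groups, and CD8A had 0 reads in untreated cells. CD3D was at 174 CPM ± 14.9 in untreated cells and 223 CPM with etoposide, CD3G at 6.94 and 11.2 CPM, and CD3E at 3.69 and 6.20 CPM. Of 5 megakaryocytic markers PF4 and GP1BA had 0 reads in all 6 libraries. ITGA2B went from 21.7 to 40.0 CPM without a call. GP9 rose from 0.588 to 2.45 CPM and was called induced (log2 fold change 2.05). PPBP, with 7 untreated and 26 etoposide reads, was not tested. Of 4 B-cell markers 2 exceeded 1 CPM in untreated cells, CD79A at 4.01 CPM (7.62 CPM with etoposide) and MS4A1 at 2.99 CPM, which fell to 1.02 CPM, while PAX5 had 0 reads there. Of 4 fibroblast markers COL3A1 rose from 0.363 to 3.12 CPM, COL1A1 was not called at 0.64, and COL1A2 and PDGFRA had too few reads to be tested.

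A gene was called induced or repressed when its fold change exceeded 2 at an adjusted p below 0.05 in the quasi-likelihood test of edgeR, adjusted over all genes tested by the method of Benjamini and Hochberg, which gave every adjusted p-value printed here. By this rule 1253 genes were induced, 8.34% of the genes tested, and 665 were repressed, 4.43%, together 12.8%. These shares are the background for each count of list members called in NOMO-1 below. Without the fold minimum, 28.8% of the genes were higher and 23.9% lower at the same adjusted p. The median log2 fold change of all genes tested was 0.036, with quartiles of -0.32 and 0.41. In 60.3% of the genes tested the 3 treated libraries did not overlap the 3 untreated ones, so separation of the groups is common among these genes. A call largely fixes such separation. Where it is stated for called genes below, it describes their levels and adds no support. In bulk RNA fewer cells of a type and less RNA per cell cannot be told apart, and the same holds for each level below.

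The highest fold change among protein-coding genes of at least 5 CPM belonged to GDF15 (ENSG00000130513, chromosome 19, 18374731 to 18389176, GRCh38), a secreted stress cytokine of the TGF-beta family. Its level was 1.03, 0.992 and 1.24 CPM in untreated replicates 1 to 3 and 56.7, 78.3 and 52.0 CPM in etoposide replicates 1 to 3, a log2 fold change of 5.84 ± 0.20 (SE, adjusted p = 7.93e-09, edgeR). Every etoposide library thus lay far above every untreated one. CD80, a costimulatory receptor of antigen-presenting cells, went from 0.360, 0.0992 and 0.432 CPM to 12.1, 26.1 and 11.4 CPM. The groups did not overlap, and etoposide replicate 2 was the highest library. THBS1, which encodes the matrix glycoprotein thrombospondin, was at 21.9, 16.8 and 20.1 CPM without and at 595, 959 and 461 CPM with the drug, 34.2-fold higher. CXCL8, the neutrophil chemokine IL-8, was at 68.2, 53.1 and 54.9 CPM in untreated cells and at 851, 1714 and 884 CPM in treated cells. In both genes etoposide replicate 2 stood above the other treated libraries, and the lowest treated library was more than 10-fold above the highest untreated one.

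Further genes of this group were KLHDC7B with a log2 fold change of 5.41, the EGF-family ligand AREG with 4.89, the adrenergic receptor ADRA1B with 4.74, CXCL10 with 4.68, ATF3 with 4.50, the RNA sensor TLR7 with 4.39 and BIRC3 with 4.19. ADRA1B passed the filter on low counts in NOMO-1 and in none of the other 9 cell lines compared. The CXCL10, TLR7 and BIRC3 values leaned on etoposide replicate 2, without which their log2 fold changes were 3.99, 3.79 and 3.42. The most abundant induced genes, beside CXCL8, were MTHFD2 of mitochondrial one-carbon metabolism, the amino acid transporter chain SLC3A2, the chromatin ATPase ATAD2 and the NADPH oxidase subunit CYBB. CYBB, at a log2 fold change of 1.01, and ATAD2, at 1.05, lay just past the fold minimum.

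Among repressed protein-coding genes of at least 5 CPM VAT1L had the lowest value, going from 360, 399 and 336 CPM in untreated replicates 1 to 3 to 50.4, 31.8 and 53.4 CPM in etoposide replicates 1 to 3, a log2 fold change of -3.01 ± 0.16 (SE). PRTN3, the neutrophil serine protease proteinase 3 of azurophil granules, went from 24.5, 20.3 and 31.6 CPM to 3.23, 2.14 and 4.65 CPM. For both genes the groups lay far apart and etoposide replicate 2 was the lowest library. MPO, the granule enzyme myeloperoxidase, was at 2150, 1885 and 2174 CPM without and at 454, 274 and 533 CPM with etoposide, 4.92-fold lower. TSPOAP1, whose gene ends close to MPO on chromosome 17, had a log2 fold change of -2.70. The remaining largest repressions were SDK2 at -2.52, the homeobox gene IRX3 at -2.31, PFKFB4 at -2.31, GPM6B at -2.25, ALDOC at -2.20, MZB1 at -2.16, PODXL at -2.13 and the defensin DEFA4 at -2.07. Of the most abundant genes, ACTB fell from 6164, 6611 and 6935 CPM to 3408, 2567 and 3064 CPM. The chaperone HSPA8 (-1.29), the nucleolar protein NCL (-1.12) and the chromatin protein PTMA (-1.17) fell alongside.

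**Figure D1:**
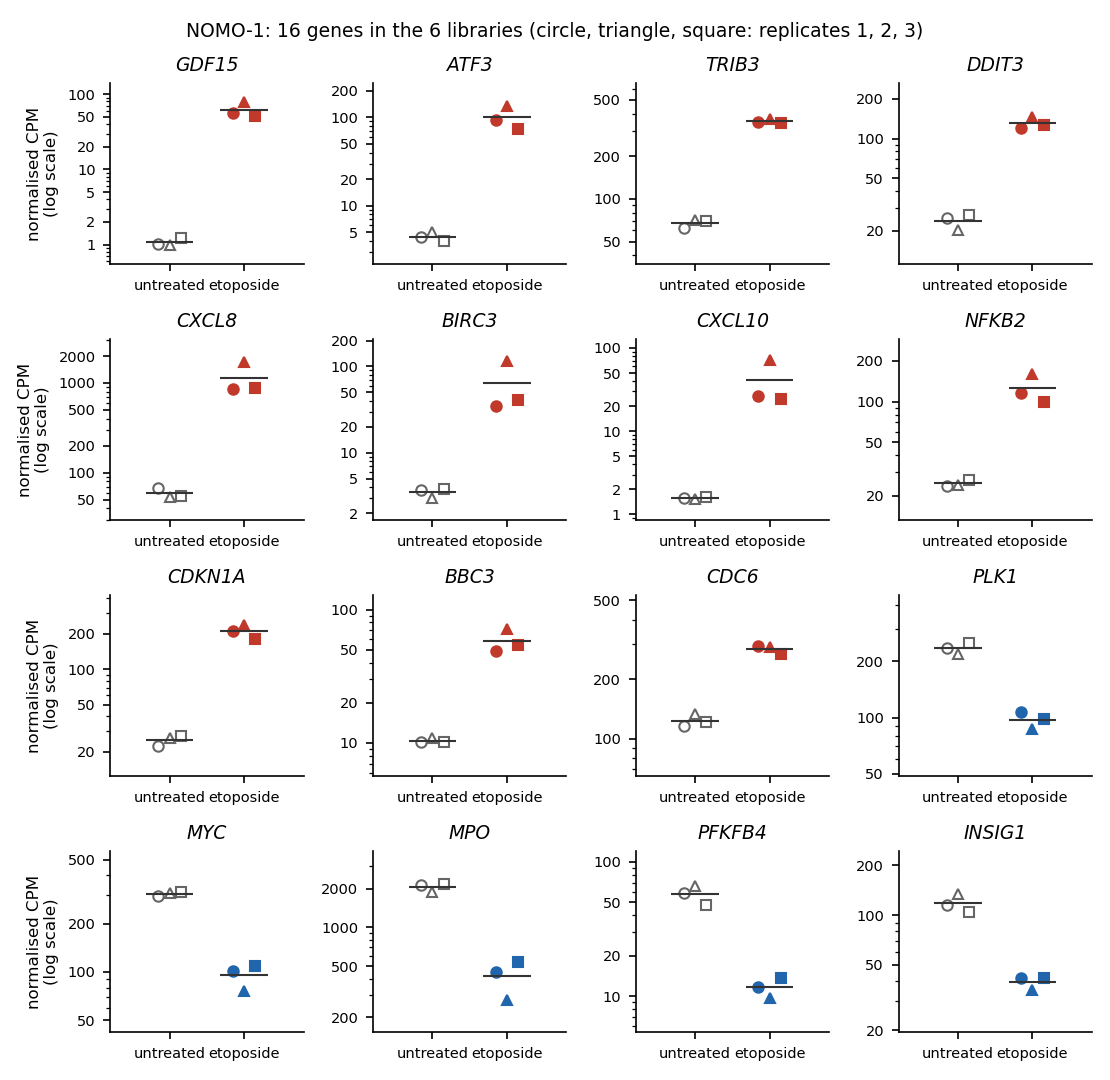
Normalised CPM (log scale) of 16 genes in the 6 NOMO-1 libraries, with open grey symbols for untreated and filled symbols for etoposide libraries, circles, triangles and squares for replicates 1, 2 and 3, and bars for the group means. The genes were drawn from the called genes, so their groups lie apart, and for CXCL10 and BIRC3 etoposide replicate 2, at 70.9 and 115 CPM, lies well above the other treated libraries.

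The drug's targets differed by less than the fold minimum. TOP2A, the topoisomerase II of dividing cells, was at 694, 562 and 523 CPM in untreated and at 430, 570 and 596 CPM in etoposide libraries, and the groups overlapped (log2 fold change -0.16, adjusted p = 0.336, edgeR). TOP2B, the form present in all cells, was at 345, 295 and 277 CPM against 194, 241 and 273 CPM, a log2 fold change of -0.37. Of 8 topoisomerase and tyrosyl-DNA phosphodiesterase genes tested 1 was repressed, the mitochondrial topoisomerase TOP1MT at -1.01, which lost its call in 4 of 16 alternative settings. TDP2, the phosphodiesterase that removes topoisomerase II from DNA ends, was not called at 0.12, and neither was TDP1 at -0.74.

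Of 24 p53 targets tested 10 were induced and 0 repressed, and the list's median log2 fold change was 0.69. CDKN1A (ENSG00000124762, chromosome 6, 36676460 to 36687337), the CDK inhibitor p21 that stops cells at the G1/S transition, rose most among well-expressed members, from 22.4, 26.4 and 27.3 CPM to 212, 234 and 179 CPM, 8.22-fold. The treated libraries were all above the untreated ones and close to each other. BBC3, the pro-apoptotic BH3-only protein PUMA, was at 10.1, 10.9 and 10.2 CPM against 49.0, 71.1 and 53.9 CPM (log2 fold change 2.48 ± 0.14). SESN2, a sestrin that restrains mTOR, rose by a log2 fold change of 2.11, the antiproliferative BTG2 by 1.90, GADD45A by 1.73, the death receptors FAS and TNFRSF10B by 1.42 and 1.14, TP53INP1 by 1.28 and the kinase PLK3 by 1.01. PHLDA3 was called at 2.76 with at most 1.05 CPM in any library. The ubiquitin ligase MDM2, the canonical feedback target of p53, was at 105, 92.8 and 92.7 CPM against 127, 176 and 152 CPM, which did not overlap but gave a log2 fold change of 0.65, short of the minimum. Several other classical targets had values near 0 or below it, namely SESN1 with 0.10, CCNG1 with -0.08, TRIAP1 with -0.32 and the repair gene XPC with -0.42. BAX had 0.30, ZMAT3 0.25, FDXR 0.45 and DDB2 0.58. Several induced members, SESN2 and GADD45A among them, are also known to respond to other stress pathways.

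The cell-cycle lists moved unevenly. Of 47 G2/M mitotic genes tested 0 were induced and 3 repressed, the helicase PIF1, the anaphase activator CDC20 and the mitotic kinase PLK1. The repressed share, 6.38%, was near the 4.43% of all genes tested. The list's median log2 fold change was -0.03 (0.03 when libraries were scaled by size alone). PLK1 was at 235, 220 and 252 CPM in untreated and at 107, 87.1 and 98.7 CPM in treated cells, a log2 fold change of -1.27 ± 0.10 (SE). CDC20 was at 143, 137 and 162 CPM against 60.1, 47.9 and 53.3 CPM, and PIF1 at 27.2, 22.5 and 29.1 CPM against 8.06, 7.22 and 7.98 CPM. In all 3 genes each treated library lay below each untreated one. Cyclin B and its kinase were not called, with CCNB1 at -0.69, CCNB2 at 0.00 and CDK1 at 0.41, nor was the mitotic survivin gene BIRC5 at 0.02, and PTTG1 had 0.01.

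Promoters of late cell-cycle genes are known for the CHR element, which binds the DREAM and MMB complexes, together with CCAAT boxes bound by NF-Y. Searched on both strands in the window from 250 bases before to 50 after the RefSeq start site (GRCh38.p14), the CHR letters TTTGAA occurred in 28 of 40 G2/M promoters found in the reference table, 70%, against 15.4% of all 27305 promoters. The letters CCAAT occurred in 33 of 40, 82.5%, against 35.7%. The lists gather genes of known pathways, so such shares, here and for the other lists below, describe the list and not the response of NOMO-1. The stretches with these letters are shown for the 3 repressed members, in the direction of transcription, with the CHR and CCAAT letters on either strand in capitals.
CDC20: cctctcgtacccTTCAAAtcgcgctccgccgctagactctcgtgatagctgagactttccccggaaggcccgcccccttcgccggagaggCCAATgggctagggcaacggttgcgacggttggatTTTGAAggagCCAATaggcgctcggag
PIF1: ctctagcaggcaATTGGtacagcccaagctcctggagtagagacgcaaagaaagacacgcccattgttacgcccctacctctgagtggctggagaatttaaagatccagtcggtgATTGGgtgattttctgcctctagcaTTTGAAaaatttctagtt
PLK1: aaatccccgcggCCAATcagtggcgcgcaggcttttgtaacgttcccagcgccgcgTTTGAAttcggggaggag
They lie at chr1:43358791-43358942 on the plus strand, chr15:64825650-64825807 on the minus strand and chr16:23678804-23678877 on the plus strand. CCNB2, TOP2A and MKI67, which were not called, hold the CHR letters as well, so the letters do not separate called from uncalled members.

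DNA replication genes were shifted upwards as a list. Of 50 tested 6 were induced and 0 repressed, and the induced share of 12% was near the 8.34% of all genes tested. Without the fold minimum 41 were higher and 1 lower, where 28.8% and 23.9% of all genes were. The list's median was 0.53. CDC6, which loads the replicative helicase at origins, was at 116, 133 and 121 CPM without and at 295, 290 and 266 CPM with etoposide (log2 fold change 1.20 ± 0.09). CCNE2, a cyclin of S-phase entry, was at 44.9, 41.0 and 34 CPM against 93.8, 173 and 129 CPM. Neither gene's groups overlapped, and the treated libraries of CCNE2 differed among themselves more than those of CDC6. The other induced members were the E2F factors E2F2 (1.67) and E2F8 (1.46), the polymerase subunit POLD3 (1.06) and the primase PRIM1 (1.02). The helicase subunits MCM2 to MCM7 lay between 0.01 and 0.37 and were not called, and the ribonucleotide reductase subunit RRM2 at 1.00 fell just short. Leaving out 1 library at a time gave 4 to 7 induced members.

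The median of 31 genes of homologous recombination and the Fanconi anaemia pathway was 0.30, and 0 were repressed. The 4 induced members were 12.9% of the list, near the 8.34% of all genes tested. They were the end-resection factor RBBP8, also called CtIP, with a log2 fold change of 1.27, the exonuclease EXO1 with 1.17, RAD51AP1 with 1.14 and the helicase BRIP1 with 1.02. RBBP8 was at 58.7, 49.4 and 50.8 CPM in untreated and at 93.8, 155 and 135 CPM in treated libraries, with etoposide replicate 1 the lowest of the treated. Without etoposide replicate 2 the list had 2 induced members instead of 4, and with a fold of 2 tested by the model it had 0. BRIP1 lost its call in 8 of 16 alternative settings. BRCA1, the central recombination factor, was at 121, 102 and 98.5 CPM against 157, 247 and 240 CPM, at the fold minimum (log2 fold change 1.00) and not called. The break sensors MRE11, RAD50, NBN and ATM had 0.06, -0.03, -0.07 and -0.14.

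The letters TTTCCCGC or TTTGGCGC, variants of the E2F site, occurred on either strand in 18 of 41 replication promoters, 43.9%, against 2.31% of all promoters in the table. The promoter of E2F2, the E2F gene with the largest change, is shown with the match in capitals (chr1:23531256-23531315, minus strand, ending 23 bases before the start site).
E2F2: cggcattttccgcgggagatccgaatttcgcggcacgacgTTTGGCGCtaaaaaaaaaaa
The letters were also found at the promoters of MCM3, MCM6 and PCNA, whose log2 fold changes were 0.07, 0.01 and 0.28.

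Of the CDK inhibitor and G1 cyclin genes 4 of 18 were induced, CDKN1A, CDKN1C, CDKN2D and the repressor E2F7, and E2F5 was repressed at -1.04. CDKN2D, an inhibitor of the cyclin D kinases, was at 11.6, 11.4 and 13 CPM against 25.6, 30.9 and 24.0 CPM. The groups did not overlap. CDK4 had 0.01, and the retinoblastoma gene RB1 had 0.39.

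The inflammatory genes had the highest share of calls among the 24 lists. Of 37 NF-kB and inflammatory cytokine genes tested 28 were induced and 0 repressed, and the median was 1.60. The summed level of the 37 was 717 to 735 CPM in untreated libraries and 2294, 3624 and 2172 CPM in etoposide replicates 1, 2 and 3, with etoposide replicate 2 the highest. The subunits of the alternative NF-kB pathway rose, NFKB2 from 23.8, 24.2 and 26.2 CPM to 115, 161 and 99.5 CPM and RELB by a log2 fold change of 2.88. The canonical subunits had smaller values that were not called, NFKB1 0.60 and REL 0.87, as did the inhibitor NFKBIA with 0.60. Among feedback regulators TNFAIP3, the ubiquitin-editing enzyme A20, was induced (1.5) and so was NFKBIZ (1.69), while TNIP1 at 0.06 was not.

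Cytokines and chemokines made up most of the rest. IL1B, the main secreted interleukin of monocytes, was at 3.19, 1.74 and 2.16 CPM without and at 35.9, 57.9 and 32.5 CPM with the drug, 17.8-fold higher. IL23A, a subunit of interleukin-23, was at 4.06, 4.46 and 3.73 CPM against 35.5, 93.7 and 36.4 CPM. In both the groups lay far apart and etoposide replicate 2 was highest. IL1A had 3 reads over the untreated libraries and 292 over the treated ones, a ratio of 94.4 with a 95% counting interval (exact binomial) from 32 to 460. TNFAIP6 was fitted at 4.88 from few untreated reads, and its value was 4.27 without untreated replicate 2 and 5.77 without untreated replicate 3. CXCL10, a chemokine for T cells, was at 1.59, 1.54 and 1.62 CPM against 26.5, 70.9 and 24.7 CPM. BIRC3, an inhibitor of apoptosis that ubiquitinates RIPK1, was at 3.70, 2.98 and 3.84 CPM against 35, 115 and 41.2 CPM. Each treated library of both genes was above each untreated one by more than 9-fold. Others were CCL3 (2.55) and CCL4 (2.41), whose reads may be split with near-identical copies, PTX3 (2.38), CCL22 (2.33), CXCL3 (2.15), PTGS2 (1.75), CXCL2 (1.70), CCL20 (1.51), CCL5 (1.40), CCL2 (1.21) and CXCL1 (1.09). TNF itself had 0.14 and the antagonist IL1RN 0.12, neither called.

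The NF-kB letters searched were GGG, then ACT, AAT, GAT or AAA, then TTCC, and 11 of the 33 promoters of this list in the reference held them on either strand, 33.3%, against 0.524% of all promoters. The AP-1 letters TGANTCA occurred in 6 of 33, 18.2%, against 7.76%. The promoter stretches of the induced CXCL10, BIRC3, TNFAIP3 and NFKBIZ are shown with the NF-kB letters in capitals, and that of CXCL8 with an AP-1 match in capitals.
CXCL10: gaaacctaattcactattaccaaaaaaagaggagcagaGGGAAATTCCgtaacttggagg
BIRC3: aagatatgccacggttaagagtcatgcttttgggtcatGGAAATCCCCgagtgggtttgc
TNFAIP3: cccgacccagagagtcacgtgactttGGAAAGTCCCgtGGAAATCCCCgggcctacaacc
NFKBIZ: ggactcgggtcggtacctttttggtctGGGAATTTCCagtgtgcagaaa
CXCL8: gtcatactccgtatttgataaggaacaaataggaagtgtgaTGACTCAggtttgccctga
The stretches are chr4:76023653-76023712 (minus strand), chr11:102317247-102317306, chr6:137867166-137867225, chr3:101827740-101827788 and chr4:73740391-73740450 (plus strand). NFKB1, NFKBIA and REL hold the same NF-kB letters and had log2 fold changes under the minimum.

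AP-1 and early response genes were induced in 15 of 34 cases, with 0 repressed and a median of 0.82. ATF3, a stress-induced bZIP factor, was at 4.47, 5.01 and 3.94 CPM in untreated and at 94.4, 136 and 74.0 CPM in treated libraries, 22.6-fold higher. JUN, the core AP-1 subunit, was at 21.8, 29.3 and 21.7 CPM against 165, 230 and 150 CPM. The groups of both were well separated. DUSP1, a phosphatase that inactivates stress kinases, had a log2 fold change of 3.23, its relatives DUSP4 and DUSP5 had 1.98 and 1.23, JUNB had 1.67 and FOSB 1.42. EGR1 (0.32), FOS (0.72) and IER2 (0.30) were not called.

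Of 43 interferon-stimulated genes 9 were induced and 0 repressed, and the median was 0.60. IFI44 had the largest value, 2.88, with 0.925, 0.645 and 0.756 CPM in untreated and 4.38, 7.02 and 5.86 CPM in treated libraries. IRF7, the regulator of interferon production, had 1.78, and IFIT2, OAS2, OASL, IFI6, IFIT3, ISG20 and GBP2 had 1.12 to 1.42. All untreated libraries of IFI44 were below all treated ones, at low levels in both. MX1 (-0.18), RSAD2 (0.13) and BST2 (-0.61) were not called. At a mean of at least 5 CPM 3 of the 9 calls were left.

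The integrated stress response was the second list in which most members were called. Of 28 genes tested 17 were induced and 0 repressed, 27 were higher without the fold minimum, and the median was 1.33. The induced members include GDF15 (5.84) and SESN2 (2.11), and SESN2 is counted among the p53 targets as well. The pseudokinase TRIB3 was at 62.5, 71.1 and 70.1 CPM without and at 352, 366 and 343 CPM with etoposide, a log2 fold change of 2.38 ± 0.09 (SE, adjusted p = 7.93e-09, edgeR). DDIT3, the pro-apoptotic transcription factor CHOP, was at 25, 20.2 and 26.4 CPM against 120, 147 and 128 CPM. CHAC1, which degrades glutathione, was at 4.42, 4.71 and 5.62 CPM against 24.7, 31.1 and 27.2 CPM. The 3 treated libraries of these genes lay close together, and none came near the untreated range. PPP1R15A, the phosphatase subunit GADD34 that ends the response, rose by a log2 fold change of 2.25, the cystine transporter SLC7A11 by 2.01, the tryptophanyl-tRNA synthetase WARS1 by 1.89, VEGFA by 1.82, CEBPB by 1.75, SLC3A2 by 1.61, STC2 by 1.51, MTHFD2 by 1.41, ATF5 by 1.38, DDIT4 by 1.28, CEBPG by 1.14 and the asparagine synthetase ASNS by 1.13. The serine synthesis genes PSAT1 (0.85), PSPH (0.64) and PHGDH (0.48) and ATF4 itself (0.34) were not called. The number of induced members was 17 in each of the 6 fits that left out 1 library.

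The composite C/EBP-ATF letters TGATGCAA, a search added after the values were known, occurred in 3 of 25 promoters of this list, 12%, against 0.923% of all promoters, at AARS1, CHAC1 and FGF21. CHAC1 is shown as the one of these that was called, with the match in capitals (chr15:40953222-40953281, plus strand).
CHAC1: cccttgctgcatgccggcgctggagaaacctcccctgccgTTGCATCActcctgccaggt

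**Figure D2:**
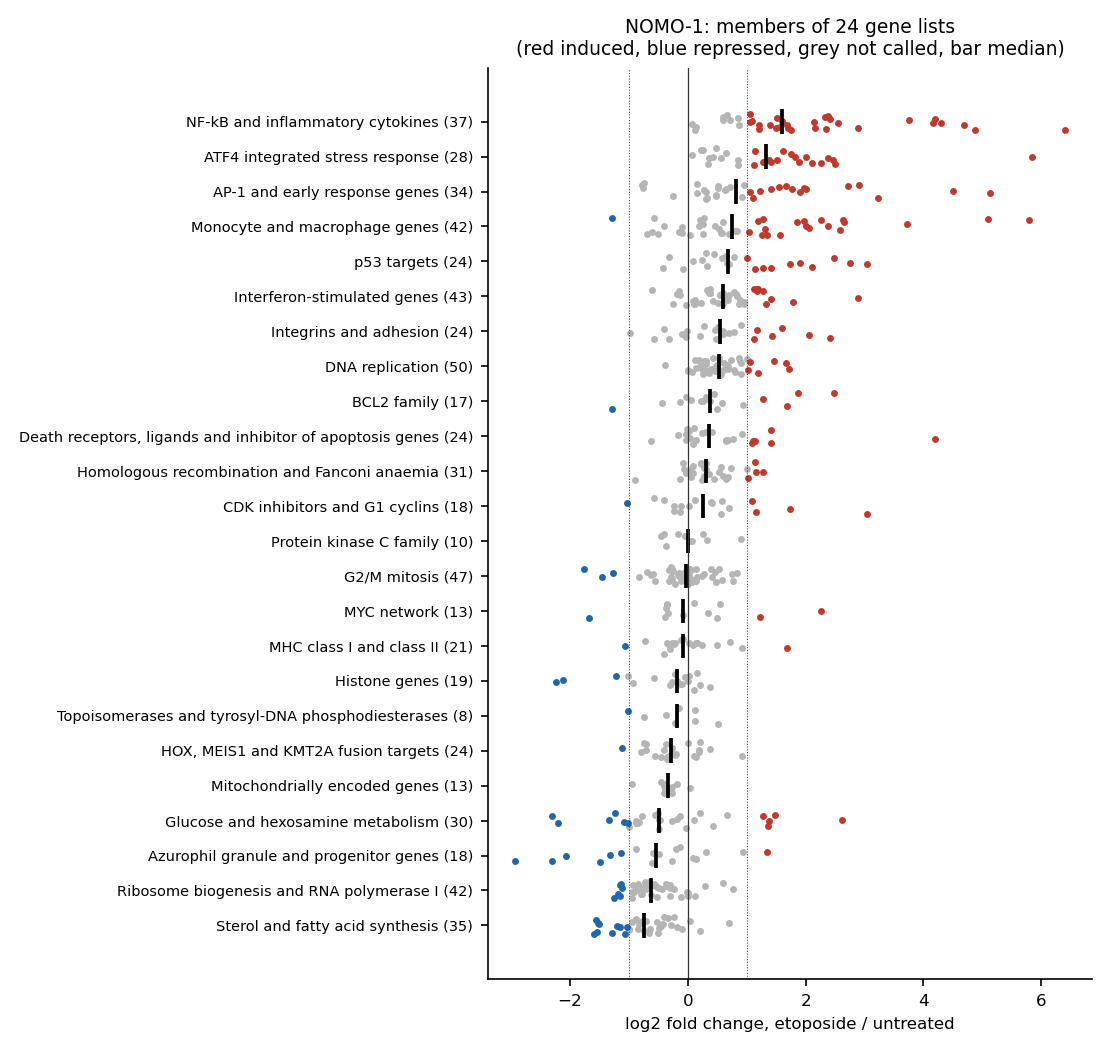
Log2 fold change of each tested member of 24 gene lists in NOMO-1, one row per list with the number tested in brackets, coloured red when induced, blue when repressed and grey when not called, with a black bar at the median. NF-kB and integrated stress response genes have the highest medians, 1.60 and 1.33, and sterol synthesis and ribosome biogenesis genes the lowest, -0.75 and -0.63.

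Among 17 BCL2 family genes 4 were induced and 1 repressed. Beside BBC3 the BH3-only genes PMAIP1, or NOXA, and BMF rose, PMAIP1 from 32.3, 30.3 and 27.3 CPM to 101, 130 and 96.6 CPM and BMF by a log2 fold change of 1.68. BCL2A1, a pro-survival member known as an NF-kB target, was at 17.5, 16.1 and 18.6 CPM against 37.4, 45.5 and 43.9 CPM, while BCL2, the founding survival gene, fell from 194, 217 and 181 CPM to 83.3, 70.8 and 90.1 CPM. The groups of these 4 genes did not overlap. MCL1 (0.58), BCL2L1 (-0.03), BAX (0.30), BAK1 (0.49) and BCL2L11 (-0.44) were not called. In the list of death receptors, ligands and inhibitors of apoptosis 6 of 24 were induced and 0 repressed, among them BIRC3, FAS, BIRC7, TNFRSF10B and the decoy receptor TNFRSF10C (1.10). The ligand TNFSF10 had 0.09, XIAP had 0.41 and CASP8 had 0.64.

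Growth and biosynthesis genes were described by 4 lists. MYC, the transcription factor of cell growth, was at 297, 310 and 312 CPM in untreated and at 102, 75.8 and 109 CPM in treated cells, 3.21-fold lower, and the treated libraries were all far below. Its antagonist MXD1 rose by a log2 fold change of 1.22, and MLXIPL was called at 2.26 from under 1 CPM, a value that was 3.57 without untreated replicate 1. Of 42 genes of ribosome biogenesis and RNA polymerase I 0 were induced and 6 repressed, 32 were lower and 2 higher without the fold minimum, and the median was -0.63. The repressed were the nucleolar MYBBP1A (-1.26), NCL, NOP16 (-1.15) and RRS1 (-1.13) and the polymerase subunits POLR1B (-1.19) and POLR1G (-1.15). POLR1B was at 99.3, 95.8 and 99.1 CPM against 45.6, 37.9 and 45.7 CPM, without overlap. NPM1 (-0.78), FBL (-0.83) and UBTF (-0.38) were not called.

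Sterol and fatty acid synthesis had 10 of 35 members repressed and 0 induced, with 28 lower and 1 higher without the fold minimum and a median of -0.75. INSIG1, the sterol sensor that retains SREBP in the endoplasmic reticulum, fell from 115, 135 and 105 CPM to 41.4, 35 and 41.3 CPM. FASN, the fatty acid synthase, fell from 723, 788 and 767 CPM to 278, 234 and 285 CPM, and HMGCS1 of the mevalonate pathway from 1204, 1111 and 913 CPM to 386, 443 and 491 CPM. Treated and untreated libraries of all 3 were apart by more than their spread. MVK (-1.55), LSS (-1.54), DHCR7 (-1.52), the desaturase SCD (-1.19), MSMO1 (-1.15), FADS2 (-1.07) and CYP51A1 (-1.04) were the other repressed members. SREBF2, the transcription factor of the pathway, had -0.64 and was the 1 of 28 promoters with the sterol regulatory element (ATCAC directly followed by CCCAC), 3.57% against 0.0476% of all promoters.

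Glucose and hexosamine metabolism genes went both ways, with 5 induced and 6 repressed of 30 and a median of -0.49. PFKFB4, which makes the activator of phosphofructokinase, fell from 58.3, 66.6 and 48.2 CPM to 11.7, 9.66 and 13.6 CPM, and the lactate dehydrogenase LDHA from 1269, 1325 and 1223 CPM to 560, 448 and 610 CPM. ALDOC (-2.20), GPI (-1.35), PFKM (-1.09) and PGK1 (-1.01) were repressed as well. In contrast PFKFB2 was at 0.668, 0.744 and 0.810 CPM against 3.78, 5.23 and 4.75 CPM, and the hexokinase HK3 (1.38), the glucose-sensing arrestin genes ARRDC4 (1.48) and TXNIP (1.27) and SLC2A6 (1.36) were induced. GAPDH had -0.83 and PKM -0.50, neither called.

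The differentiation genes moved in opposite directions by list. Of 42 monocyte and macrophage genes 19 were induced and 1 repressed, the chemokine receptor CCR2 at -1.29, and the median was 0.75. TREM1, an activating receptor of monocytes and neutrophils, was at 1.70, 1.84 and 1.08 CPM against 19, 22.6 and 19.5 CPM, and CD86, a costimulatory partner of CD80, at 36.3, 29.8 and 34.2 CPM against 135, 152 and 133 CPM. Both were separated between the groups with little spread among treated libraries. The chemotactic receptors C5AR1 (2.63), FPR1 (2.59) and FPR2 (1.86), the lectin receptor CLEC7A (2.27) and the matrix protease MMP9 (2.0) were induced. CD14 was called at 1.28 although it stayed below 1 CPM, and LYZ (-0.58), TLR2 (-0.61), S100A9 (-0.11) and CTSB (0.03) were not called. Leaving out 1 library at a time gave 15 to 21 induced members.

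Of 18 azurophil granule and progenitor genes 6 were repressed and 1 induced, CD34 at 1.35 and under 2 CPM, and the median was -0.54. CTSG, the granule protease cathepsin G, was at 204, 185 and 216 CPM against 74.2, 55.2 and 85.7 CPM, and the receptor kinase FLT3 at 75.9, 77.3 and 69.9 CPM against 30.6, 25.1 and 33.2 CPM. With MPO, PRTN3, DEFA4 and RNASE3 (-1.14) these formed the repressed members. In none did the groups overlap, as was so for 60.3% of all genes tested. AZU1 had -0.88, KIT -0.27 and CD33 -0.12. In the list of HOX genes, MEIS1 and targets of KMT2A fusions 1 of 24 was repressed, HOXA4 at -1.11. That is 4.17%, against 4.43% of all genes tested. HOXA9 (-0.30), MEIS1 (-0.22) and MEF2C (0.11) were not called. Of 24 integrin and adhesion genes 6 were induced, among them ICAM1 (1.60), the junctional protein JAML (1.18) and ITGAD, which was called at 2.41 and at 3.28 without untreated replicate 2. The beta chain ITGB2 had -0.04.

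Antigen presentation genes were induced in 4.76% and repressed in 4.76% of cases, against 8.34% and 4.43% of all genes tested. Of 21 MHC genes tested 1 was induced, HLA-DQA1 at under 1 CPM, and 1 repressed, the class II transactivator CIITA, from 33.8, 39.8 and 34.2 CPM to 20.2, 16.6 and 14.5 CPM. CIITA's groups did not overlap, but its call was lost without etoposide replicate 3 and without untreated replicate 2. HLA-C (0.03), HLA-DRA (-0.32) and CD74 (-0.40) were not called, and reads of HLA genes may be split between near-identical alleles and paralogues. Histone genes had 3 of 19 repressed, H3C10, H4C9 and H2BC12, all under 5 CPM in each library of a kit that selects polyadenylated RNA. Of the 13 mitochondrially encoded genes 0 were called, and 10 were lower without the fold minimum. Their summed level was 45631, 54784 and 52155 CPM in untreated and 45181, 37217 and 41072 CPM in etoposide libraries, and untreated replicate 1 lay just above etoposide replicate 1. The protein kinase C list had 0 calls of 10.

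The genes that the study discusses were mostly within the fold minimum in NOMO-1. The study names them for different reasons. Its modulators, among them PARP9, NOTCH1, SLFN11 and SMARCA4, were picked by their level before treatment and defined as unchanged by etoposide. Its emulators, here MTOR, HDAC1 and ROCK1, were found by the expression profiles that their modulation evokes. For both groups a value within the fold minimum is not at odds with the study. BCL2A1, PLK1, MYC and CDKN1A were called as given above. PRKCH had a log2 fold change of 0.90 at up to 1.15 CPM, IGF1R -0.88, PARP9 0.81, MALT1 0.55, SMARCA4 -0.53, SLFN11 0.47, NOTCH1 0.43, SIRT1 0.37, MTOR 0.20, ROCK1 0.04 and HDAC1 -0.01. IGF1R, the receptor of insulin-like growth factors, was at 192, 192 and 191 CPM against 119, 90.5 and 104 CPM, without overlap.

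Genes were also split into 5 equal groups by their span from first to last annotated base. In the group of shortest genes, 66 to 7384 bases, the median log2 fold change was -0.10 with 8.39% induced and 7.92% repressed. In the other 4 groups the medians lay between 0.05 and 0.08 and the share repressed between 3.16% and 3.93%. Within protein-coding genes the shortest group had a median of -0.01 with 10.8% induced and 5.02% repressed. The libraries of a group differed along span as well. From the shortest to the longest group, the median log2 difference from the other 2 libraries went from -0.09 to 0.08 for untreated replicate 1, from 0.09 to -0.07 for untreated replicate 3 and from 0.02 to -0.06 for etoposide replicate 1. The first 2 ranges are about as wide as that between treated and untreated cells, and their part in it was not tested.

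The NOMO-1 values were then set beside those of 9 other AML cell lines, each treated for 24 hours at its own dose, with no library shared between lines. By list medians NOMO-1 was the highest of the 10 for DNA replication (0.53, others -0.92 to 0.48) and for CDK inhibitors and G1 cyclins (0.25, others -0.21 to 0.16), and the lowest for MHC genes (-0.09, others 0.33 to 1.32), mitochondrially encoded genes (-0.34, others -0.22 to 0.30) and monocyte genes (0.75, others 0.76 to 2.83). Its integrated stress response median, 1.33, was the second highest after THP-1, with 1.74. NF-kB genes ranked 5th and p53 targets 4th. The doses differ, and the medians cover only the members tested in each line, so these places are descriptions. Gene by gene, ATF3, BBC3, PMAIP1, DUSP1, CDC6 and RBBP8 had their highest log2 fold change of 10 lines in NOMO-1, and MPO, PFKFB4, ALDOC, PODXL, TSPOAP1, MVK and ACTB their lowest. The next line lay within the SE of NOMO-1 for ATF3 (4.50 against 4.48), ALDOC (-2.20 against -2.11) and ACTB (-1.12 against -1.11). CXCL8 was induced in all 10 and ranked 3rd here.

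**Figure D3:**
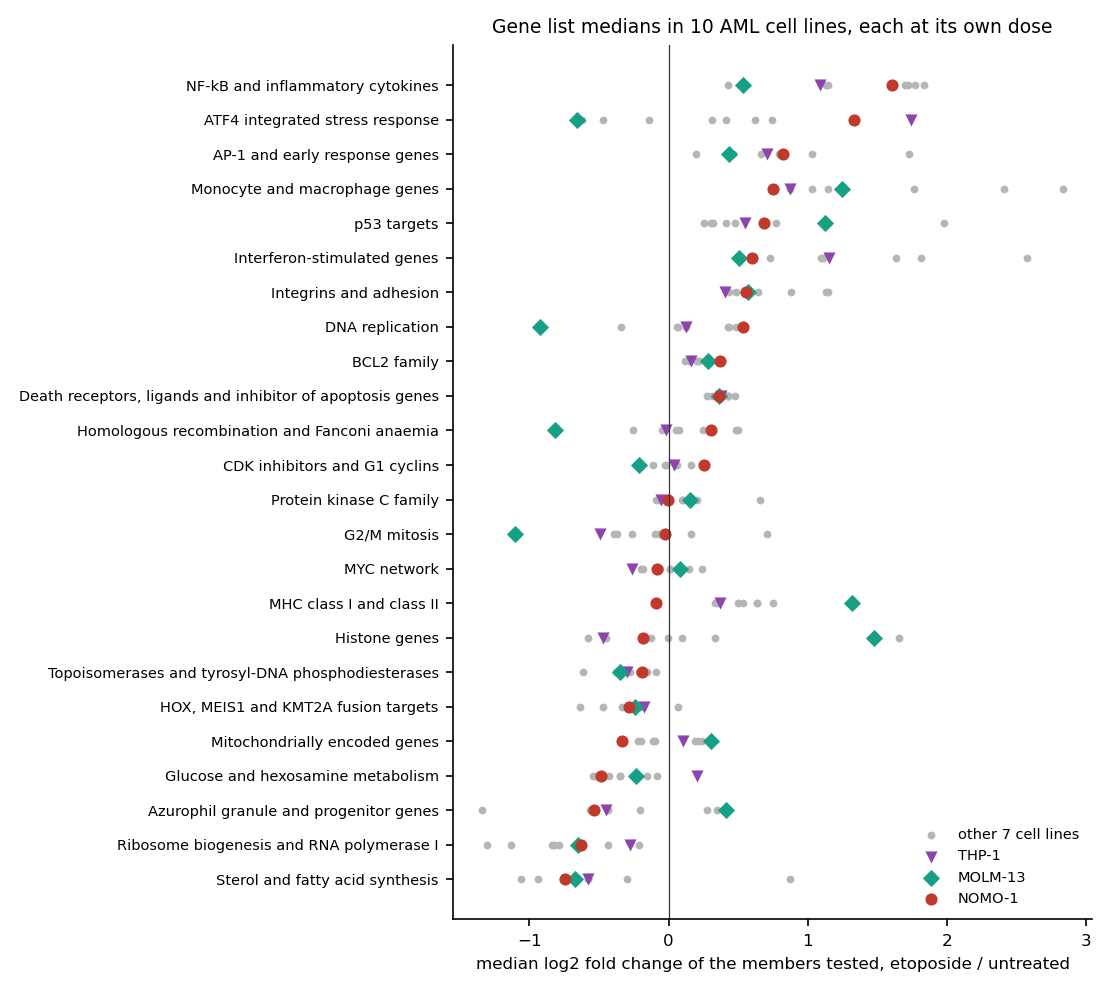
Median log2 fold change under etoposide of the tested members of each gene list (horizontal axis) in 10 AML cell lines, each at its own dose, with NOMO-1 in red, THP-1 in purple, MOLM-13 in green and the other 7 lines in grey. NOMO-1 is at the upper end for DNA replication, near it for the integrated stress response, and at the lower end for MHC and monocyte genes.

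For a test of the difference, NOMO-1 was compared with MOLM-13 (0.39 µM) and THP-1 (1.01 µM), the lines also listed as M5, by the interaction of line and treatment in edgeR. The call required a difference of log2 fold changes beyond 1 at an adjusted p below 0.05. Against MOLM-13 the response was higher in NOMO-1 for 859 genes (5.37% of 15987 tested) and lower for 1531 (9.58%). Scaled by library size alone the split was 1256 higher and 1023 lower, so 55.1% of the calls were higher instead of 35.9%, and the median difference moved from -0.12 to 0.07.

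Of 30 integrated stress response genes 23 were higher in NOMO-1 than in MOLM-13 and 0 lower, under both scalings. CHAC1 rose from 4.92 CPM ± 0.62 (SD, n = 3) to 27.7 CPM ± 3.2 in NOMO-1 and went from 4.70 CPM ± 1.2 to 1.18 CPM ± 0.16 in MOLM-13, a difference of 4.36 ± 0.27 (SE). STC2, TRIB3 and PHGDH differed by 4.06, 3.44 and 2.53. TRIB3 ended at 353 CPM ± 12 in NOMO-1 and at 31.5 CPM ± 2.4 in MOLM-13, from similar untreated levels of 67.9 CPM ± 4.7 and 71.4 CPM ± 11. The TGF-beta family gene INHBE, which is not in this list, differed by 6.67, from 2.59 to 38.7 CPM in NOMO-1 and from 1.19 to 0.156 CPM in MOLM-13.

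Replication, recombination and mitotic genes separated the same pair. Of 50 replication genes 37 were higher in NOMO-1 and 0 lower (43 higher by library size alone), of 47 mitotic genes 23 and 0 (30), and of 31 recombination genes 16 and 1 (19 higher). CDC6 went from 124 CPM ± 8.9 to 284 CPM ± 15 in NOMO-1 and from 114 CPM ± 5.6 to 48.0 CPM ± 2.8 in MOLM-13, a difference of 2.33 ± 0.12. E2F8, RBBP8, CCNE2, EXO1 and BRCA1 differed by 2.47, 2.38, 2.18, 2.12 and 1.87, and the kinetochore genes NDC80 and CENPE by 1.82 and 1.77. In MOLM-13 all 8 were lower with the drug, whereas in NOMO-1 CENPE stayed near its untreated mean, with a log2 fold change of 0.03, and the other 7 had positive values.

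The p53 targets split, with 3 of 25 higher and 6 lower in NOMO-1 than in MOLM-13. MDM2 went from 96.8 CPM ± 6.9 to 152 CPM ± 24 in NOMO-1 and from 131 CPM ± 3.3 to 468 CPM ± 53 in MOLM-13, a difference of -1.31 ± 0.14. ZMAT3 (-1.93), XPC (-1.66), FDXR (-1.52), TP53INP1 (-1.5) and SESN1 (-1.30) were the other lower ones. BBC3 (1.22), SESN2 (1.24) and PHLDA3 (1.27) were higher in NOMO-1, and PMAIP1, from the BCL2 list, by 1.65. MHC genes were lower in NOMO-1 in 13 of 23 cases and higher in 0 (9 lower by library size alone), among them CIITA (-2.69), HLA-DPA1 (-2.33) and HLA-C (-1.41). Azurophil genes were lower in 10 of 19, including PRTN3 (-3.42) and FLT3 (-1.73), monocyte genes lower in 12 and higher in 4 of 46, including S100A9 (-2.46) and LYZ (-2.19), and histone genes lower in 16 and higher in 1 of 28, including H2BC12 (-3.38). NF-kB genes were higher in 12 and lower in 2 of 38, IL23A by 3.90 and CXCL8 by 1.71, with LIF lower at -2.66.

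Against THP-1 fewer genes differed, 378 higher in NOMO-1 (2.28% of 16581 tested) and 627 lower (3.78%), and by library size alone 507 higher and 482 lower, 51.3% higher instead of 37.6%. Here 8 of 38 NF-kB genes were higher in NOMO-1 and 0 lower. BIRC3 rose from 3.50 CPM ± 0.46 to 63.9 CPM ± 45 in NOMO-1 and lay at 1.35 CPM ± 0.24 and 1.5 CPM ± 0.48 in THP-1, a difference of 3.91 ± 0.59 (3.22 without etoposide replicate 2 of NOMO-1). CXCL10 (3.17), IL1B (1.47), NFKB2 (1.27) and RELB (1.20) differed in the same direction. The integrated stress response ran the other way, with 0 of 30 higher and 8 lower in NOMO-1 (7 by library size alone). TRIB3 rose 5.21-fold in NOMO-1 and from 35.2 CPM ± 2.0 to 583 CPM ± 190 in THP-1, a difference of -1.77 ± 0.20, and STC2 and DDIT4 differed by -2.99 and -1.73. Interferon-stimulated genes were lower in 7 and higher in 1 of 47, MHC genes lower in 5 of 22 and azurophil genes lower in 4 of 20, with MPO at -1.79 and CTSG at -1.58. PFKFB4, which fell in NOMO-1, was at 15.7 CPM ± 1.1 without and 21.1 CPM ± 3.1 with drug in THP-1, a difference of -2.84 ± 0.21. Replication genes were higher in 2 of 50, CCNE2 by 1.67 and E2F8 by 1.26, a share near the 2.28% of all genes tested. Among 25 p53 targets 2 were higher, BBC3 by 1.60 and PHLDA3 by 1.98.

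**Figure D4:**
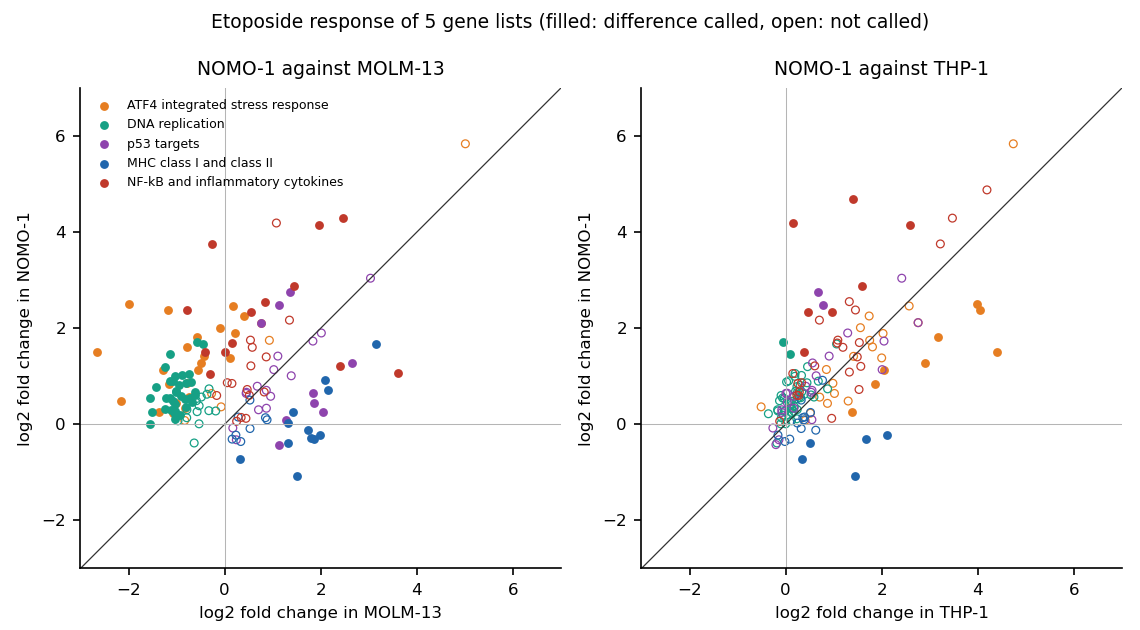
Log2 fold change under etoposide in NOMO-1 (vertical axis) against MOLM-13 (left) and THP-1 (right) for the members of 5 gene lists tested in both lines, with filled points where the difference was called and a diagonal of equal response. Against MOLM-13 the stress response and replication genes lie above the diagonal and MHC genes below it, with 23, 37 and 13 called differences, whereas against THP-1 most points lie near the diagonal.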

How the data were processed

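RNA was sequenced single-end on a HiSeq instrument after TruSeq stranded mRNA preparation. Per the labels and the submitters' processing notes, the authors checked reads with FastQC 0.11.5, aligned them with STAR 2.5.3a and used edgeR 3.20.1. The deposited values are raw read counts per gene, not normalised, with 1 count column a library. The strand setting of that column is not given in the sources used here. Reads in NOMO-1 were found for 115 of 434 genes that an antisense gene's exon covers entirely, and values of overlapping and antisense genes are uncertain. Of 58037 gene identifiers, 45 pseudoautosomal copies were left out, as were the alignment summary lines. Genes were named from GENCODE 44 on GRCh38, whereas the study used GENCODE 25.

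Counts were filtered with filterByExpr (minimum count 10, total 15), scaled by TMM and tested with edgeR 4.0.16 in R 4.3.3 by its quasi-likelihood test, adjusted by the method of Benjamini and Hochberg, the 3 etoposide against the 3 untreated libraries. Differences between lines came from interaction contrasts of the 4 groups of each pair of lines. DESeq2 1.42.0 and other settings were alternatives, and the scripts were tested on simulated data. Genes were named by rule: the 12 induced and 12 repressed protein-coding genes of largest change at a mean of at least 5 CPM, the 5 most abundant called genes of each direction, up to 4 called members of each list with the largest change and up to 2 with the smallest, the genes the study discusses with the drug targets, and the 6 largest differences between lines in each direction. Other genes of the lists were named after their values were seen. The members and lists were chosen with earlier results of these data known. OCI-AML2 was not used here, because the study set its etoposide libraries aside. With 3 libraries a group, precision is set by the spread between libraries, and counting intervals cover counting error only. Some genes that the rule names are not reported here.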

Additional observations from a re-analysis of the deposited data

Results flagged for a closer look

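The results below are differences between lines in the response to etoposide, each past an adjusted p of 0.05 in edgeR's interaction test. Doses differed between the lines. Against THP-1 378 genes had a higher and 627 a lower response in NOMO-1, and against MOLM-13 859 and 1531. Values are log2 fold change in NOMO-1 minus that in the other line.

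Against THP-1 the inflammatory genes BIRC3 (3.91), CXCL10 (3.17), IL1B (1.47), NFKB2 (1.27) and RELB (1.20) were higher, as were OPTN (3.30), SCG2 (2.92), JUNB (1.37), CCNE2 (1.67), E2F8 (1.26), BBC3 (1.60) and PMAIP1 (1.01). Without etoposide replicate 2 of NOMO-1 the differences for CXCL10, BIRC3 and OPTN were 2.56, 3.22 and 2.68. Lower in NOMO-1 were ORM1 (-5.01), SLC6A9 (-4.03), S100P (-3.99), STC2 (-2.99), PFKFB4 (-2.84), CIITA (-2.61), S100A9 (-2.42), HLA-DRA (-2.09), IFITM1 (-1.87), MPO (-1.79), TRIB3 (-1.77), DDIT4 (-1.73), CTSG (-1.58), GPI (-1.37) and BCL2A1 (-1.20). IGFBP3 (-4.03) was lower too, and had too few reads to be tested in NOMO-1 alone.

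Against MOLM-13 the TGF-beta family gene INHBE (6.67) and the stress response genes CHAC1 (4.36), STC2 (4.06), TRIB3 (3.44) and PHGDH (2.53) were higher. So were the cell-cycle and repair genes E2F8 (2.47), RBBP8 (2.38), CDC6 (2.33), CCNE2 (2.18), EXO1 (2.12), BRCA1 (1.87), NDC80 (1.82) and CENPE (1.77). KLHDC7B (4.73), IL23A (3.90), CXCL8 (1.71), PMAIP1 (1.65), SESN2 (1.24) and BBC3 (1.22) were higher as well. CREB5 differed by 4.38, with 0.114 and 0.0877 CPM in MOLM-13, where it was not tested alone.

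Lower in NOMO-1 than in MOLM-13 were the p53 targets ZMAT3 (-1.93), XPC (-1.66), FDXR (-1.52), TP53INP1 (-1.5), MDM2 (-1.31) and SESN1 (-1.30), the MHC genes CIITA (-2.69), HLA-DPA1 (-2.33) and HLA-C (-1.41), and the myeloid genes PRTN3 (-3.42), S100A9 (-2.46), LYZ (-2.19) and FLT3 (-1.73). CYP27A1 (-5.09), FAT1 (-4.24), H2BC12 (-3.38), COL5A1 (-3.36) and LIF (-2.66) were also lower.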

How the results depend on the processing

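No named gene with a call in NOMO-1 changed sign, whereas named genes near 0 without a call did, and by library size alone the split of differences turned to more higher than lower, 1256 and 1023 against MOLM-13 (median from -0.12 to 0.07) and 507 and 482 against THP-1, and the G2/M median moved from -0.03 to 0.03. Without a fold minimum 7919 genes were called in NOMO-1 (4327 higher, 3592 lower), with a fold of 2 tested by the model 711 (541 and 170), and among genes averaging 5 CPM or more 867 (590 and 277), where fewer genes were tested. At 5 CPM the differences from THP-1 were 575 (221 higher, 354 lower) and from MOLM-13 1464 (788 lower), and without a fold minimum 2950 (1095 and 1855) and 6585 (2622 and 3963). In the main fit the median log2 fold changes of the longest and the shortest genes were 0.06 and -0.10. The difference between them was smaller in other settings, 0.0682 at 5 CPM and 0.061 for protein-coding genes alone, and the cause was not tested. Leaving out 1 NOMO-1 library gave 1791 to 2185 calls (1118 to 1367 induced, 665 to 865 repressed) in NOMO-1, 745 to 1177 differences from THP-1 (301 to 546 higher, 444 to 631 lower) and 2054 to 2508 from MOLM-13 (877 to 1087 higher, 1177 to 1421 lower). No library of THP-1 or MOLM-13 was left out, so dependence of the differences on those libraries was not tested. DESeq2 called 1827 genes. With a fold of 2 tested by the model, induced members fell to 0 for recombination, 2 for interferon-stimulated and 3 for replication genes, and repressed members to 1 for ribosome biogenesis and 5 for sterol genes. With no filter on low counts 2581 were called. Deviations of same-numbered libraries correlated at -0.616, -0.185 and -0.195, and those of differently numbered ones at -0.328 to 0.441. Deviations from a mean of 3 libraries cannot show whether same-numbered cultures were handled together. The replicate block gave 1899 calls (1233 induced, 666 repressed), 938 differences from THP-1 (357 and 581) and 2333 from MOLM-13 (850 and 1483). Of 105 called named genes 70 kept their call under all alternatives.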

Other observations

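Gene classes differed in the share repressed in NOMO-1. Of 12548 protein-coding genes 8.53% were induced and 3.51% repressed. Of 1558 long noncoding RNA genes 8.47% were induced and 10.7% repressed, with a median log2 fold change of -0.12. Of 94 genes marked by the annotation as still to be experimentally checked 3.19% were induced and 18.1% repressed. Values of overlapping and antisense genes are uncertain, as given above, and their part in these shares was not tested.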
